A study of Rattus norvegicus with 9 samples.

Results

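The ATF4 amino acid response genes are 35 genes for amino acid synthesis, amino acid uptake and stress control, chosen by symbol from a list of genes known to respond to the transcription factor ATF4. All 35 were found among the 14607 genes listed in at least 1 library of neonatal rat cardiomyocytes, and 34 were among the 11761 genes abundant enough to be tested. The gene left out of the tests was Fgf21. Cells short of an amino acid, or under other stresses, phosphorylate the translation factor eIF2alpha, which slows most protein synthesis and favours translation of Atf4 messenger RNA. ATF4 protein, often paired with a C/EBP protein, then raises genes that make, import or charge amino acids, and also genes such as Trib3 and Chac1 that feed back on the response. In heart muscle cells the same genes are known to rise in mitochondrial and nutrient stress.

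Primary cardiomyocytes came from Sprague Dawley rats aged 1 to 2 days. They were exposed to lentivirus for 16 h and kept for 48 h more in medium with serum. Control cultures received lenti-NC, the vector control, and carry the genotype label WT. Cultures with lenti-TCF7L2, titled lenti-TCF7L2 WT, overexpressed TCF7L2, a transcription factor of the Wnt pathway. Cultures with lenti-shTCF7L2 received a short hairpin RNA against TCF7L2 and are labelled as a knock down. Every group was therefore infected, none was uninfected, and each held 3 libraries. Below, the viruses, virus groups and virus libraries are those of lenti-TCF7L2 and lenti-shTCF7L2, and the controls are lenti-NC. The labels do not say whether those were separate cultures, so p-values measure only the spread between these samples. Neither the species of the TCF7L2 insert nor the promoters of the viruses are given in the sources used here.

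Totals ran from 15085922 to 16478295 expected counts per library. Tcf7l2 (Entrez gene 679869) stood at 40.03, 36.4 and 34.1 CPM (counts scaled to library size) in the control libraries, 142, 206 and 85.7 in those with lenti-TCF7L2, and 25.6, 30.3 and 25.9 in those with lenti-shTCF7L2. With lenti-TCF7L2 it rose by 1.97 on the log2 scale (SE 0.27, adjusted p = 0.000846), and its difference of -0.43 with lenti-shTCF7L2 did not pass the test (adjusted p = 0.511), although the groups did not overlap. That difference did pass without lenti-TCF7L2 replicate 3 (-0.45, adjusted p = 0.0285), where 17.4% of all tested genes passed, against 3.64% with all libraries. The lowest Pearson's r between replicates was 0.948 for lenti-TCF7L2 and 0.994 for each other group. In lenti-TCF7L2 replicate 3 the median gene over 8000 bases long lay at -0.98 and the median gene of up to 1000 bases at 0.49, on the log2 scale against the control mean. Of 11 cardiomyocyte markers, 10 were lower with lenti-TCF7L2, against 13.8% of all tested genes. Summed, these markers ran from 58672 to 59930 CPM with lenti-NC, from 25610 to 33237 with lenti-TCF7L2 and from 54481 to 55869 with lenti-shTCF7L2.

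With lenti-shTCF7L2, 14 of the 34 tested genes rose against lenti-NC, where 1.32% of all tested genes rose, and 1 fell, where 2.32% of all did. With lenti-TCF7L2, 16 rose, against 18.0% of all genes, and 3 fell, against 13.8%. In either direction that made 15 of 34 with the hairpin virus, against 3.64% of all genes, and 19 of 34 with lenti-TCF7L2, against 31.8%. A gene is said here to have risen or fallen where the adjusted p of edgeR's quasi-likelihood test was under 0.05. Both comparisons use the same lenti-NC libraries, so they are not independent of each other. The median log2 difference of the 34 genes was 0.46 with lenti-shTCF7L2, where the median of all tested genes was 0.01, and 0.33 with lenti-TCF7L2, where that of all genes was 0.03. All 3 lenti-shTCF7L2 libraries lay above all 3 control libraries in 27 of the 34 genes, an arrangement found in 19.9% of all tested genes. The same held for lenti-TCF7L2 in 17 of the 34, against 24.9% of all genes.

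Rises with both viruses were found for 10 genes, against 0.595% of all tested genes, or 70 genes. They were Phgdh, Psat1, Shmt2, Mthfd1l, Asns, Cth, Slc6a9, Slc1a5, Atf5 and Chac1, and in each of them all 6 libraries with a TCF7L2 virus lay above all 3 control libraries, as they did in each of the 70. Of the 10, 4 also differed between the viruses, as did 24 of the 70 (0.204% of all genes). Shmt2, Asns and Chac1 were lower with lenti-TCF7L2 than with lenti-shTCF7L2, and Slc1a5 was higher. A rise with lenti-shTCF7L2 and no call with lenti-TCF7L2 was found for Mthfd2, Slc7a3, Slc7a11 and Trib3 (0.553% of all genes), and all 4 were lower with lenti-TCF7L2 than with lenti-shTCF7L2. Atf3, Atf4, Cebpb, Slc3a2 and Ddit4 rose with lenti-TCF7L2 and were not called with lenti-shTCF7L2 (16.5% of all genes). Cbs, Slc38a2 and Vldlr fell with lenti-TCF7L2 and were not called with lenti-shTCF7L2 (13.1% of all genes). Gpt2 alone rose with lenti-TCF7L2 and fell with lenti-shTCF7L2 (0.952% of all genes). Tcf7l2 itself stood in that order, but its hairpin difference did not pass with all libraries. A link between them was not tested. Between the viruses directly, 4 of the 34 genes were higher with lenti-TCF7L2 and 11 were lower, against 18.4% and 14.7% of all genes and 33.1% in either direction. The remaining 11 genes were called against lenti-NC with neither virus, as were 66.8% of all genes.

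**Figure D1:**
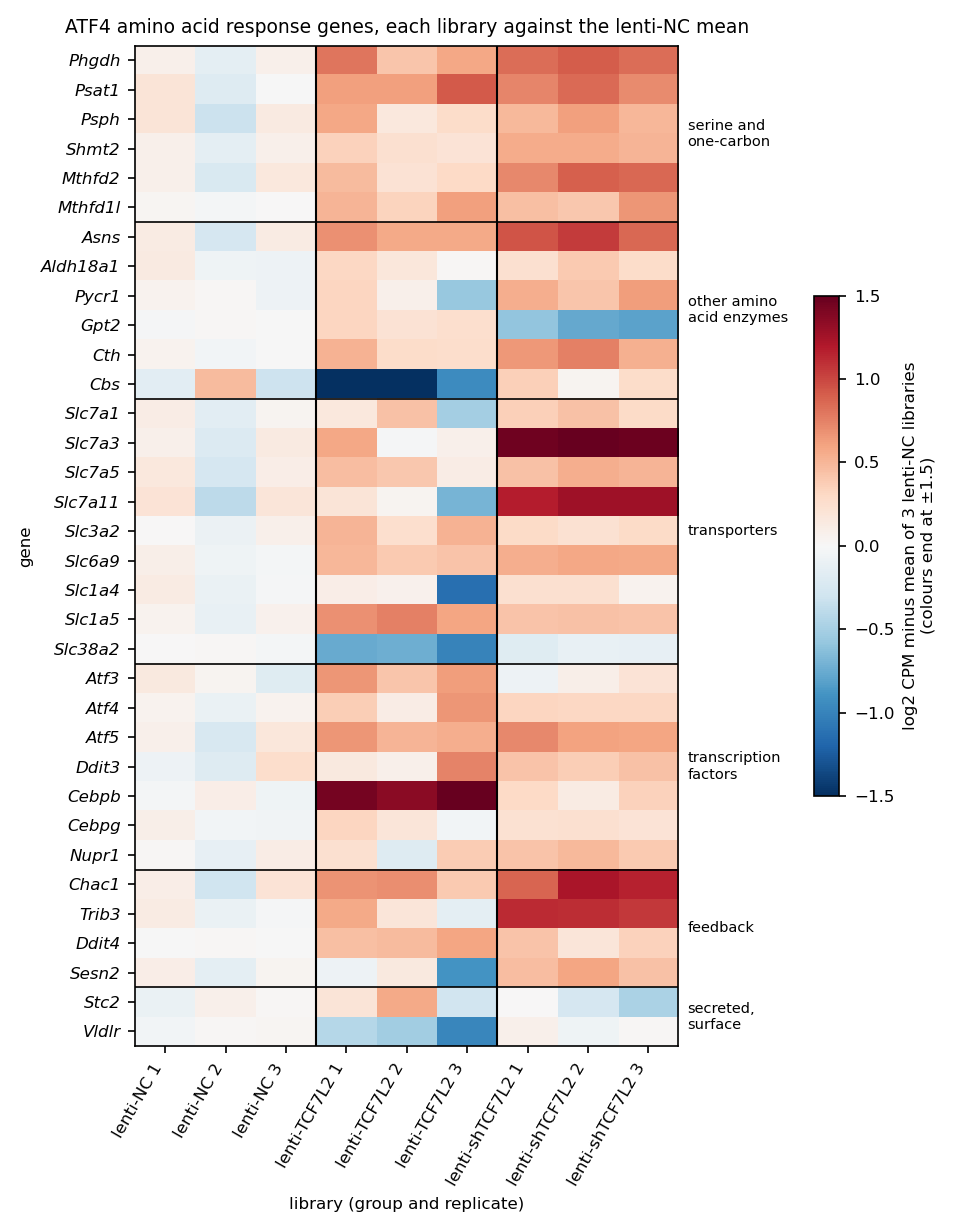
Each column is 1 of the 9 libraries and each row 1 of the 34 tested genes, ordered by role; colour gives log2 CPM minus the mean of the 3 lenti-NC libraries. The median over the rows is 0.44 in every lenti-shTCF7L2 library and 0.46, 0.23 and 0.26 in lenti-TCF7L2 replicates 1 to 3.

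The plot of all libraries shows how even the hairpin group was. The median of the 34 genes, as log2 CPM against the control mean, was 0.44 in each lenti-shTCF7L2 library, while it was 0.46, 0.23 and 0.26 in the lenti-TCF7L2 libraries and 0.07, -0.10 and 0.03 in the lenti-NC libraries. Lenti-NC replicate 2 was the lowest control library in 23 of the 34 genes, against 31.2% of all tested genes. Lenti-TCF7L2 replicate 1 was the highest of its group in 19 of the 34, against 15.3% of all genes. Without lenti-NC replicate 2, the genes called with lenti-shTCF7L2 numbered 9 (8 higher), where all libraries gave 15, and 0.868% of all genes were called. Those that rose with both viruses then numbered 4, where all libraries gave 10, against 0.109% of all genes.

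The number of calls with lenti-shTCF7L2 against lenti-NC changed with the libraries that entered the fit. Fitted on the 6 libraries of that comparison alone, 27 of the 34 genes rose and 2 fell, while 13.0% of all genes rose. Without lenti-TCF7L2 replicate 3, 26 rose and 2 fell, while 6.51% of all genes rose. In that run 19 rose with both viruses, against 2.5% of all genes. That library is not among those compared with the hairpin. Without it 17.4% of all genes were called with the hairpin, where all libraries gave 3.64%. With lenti-TCF7L2 it was 42.7%, where all libraries gave 31.8%. Passes of single genes without that library, given below, are to be read against these shares. With fewer libraries of the compared groups the hairpin calls were fewer. They numbered 10 and 9 without control replicates 1 and 3, and 9, 5 and 9 without lenti-shTCF7L2 replicates 1, 2 and 3. Of all genes, 1.52% and 0.885% were called in those control runs, and 1.21%, 0.742% and 1.02% in those hairpin runs. The count that rose with both viruses was 4 and 5 without control replicates 1 and 3, and 6 without lenti-TCF7L2 replicate 1. It was 4, 3 and 3 without lenti-shTCF7L2 replicates 1, 2 and 3. In these runs the share of all genes ran from 0.118% to 0.372%. Without lenti-TCF7L2 replicate 2 the count was 13, against 1.02% of all genes. Phgdh, Asns and Slc6a9 passed in both comparisons whichever library was left out.

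**Figure D2:**
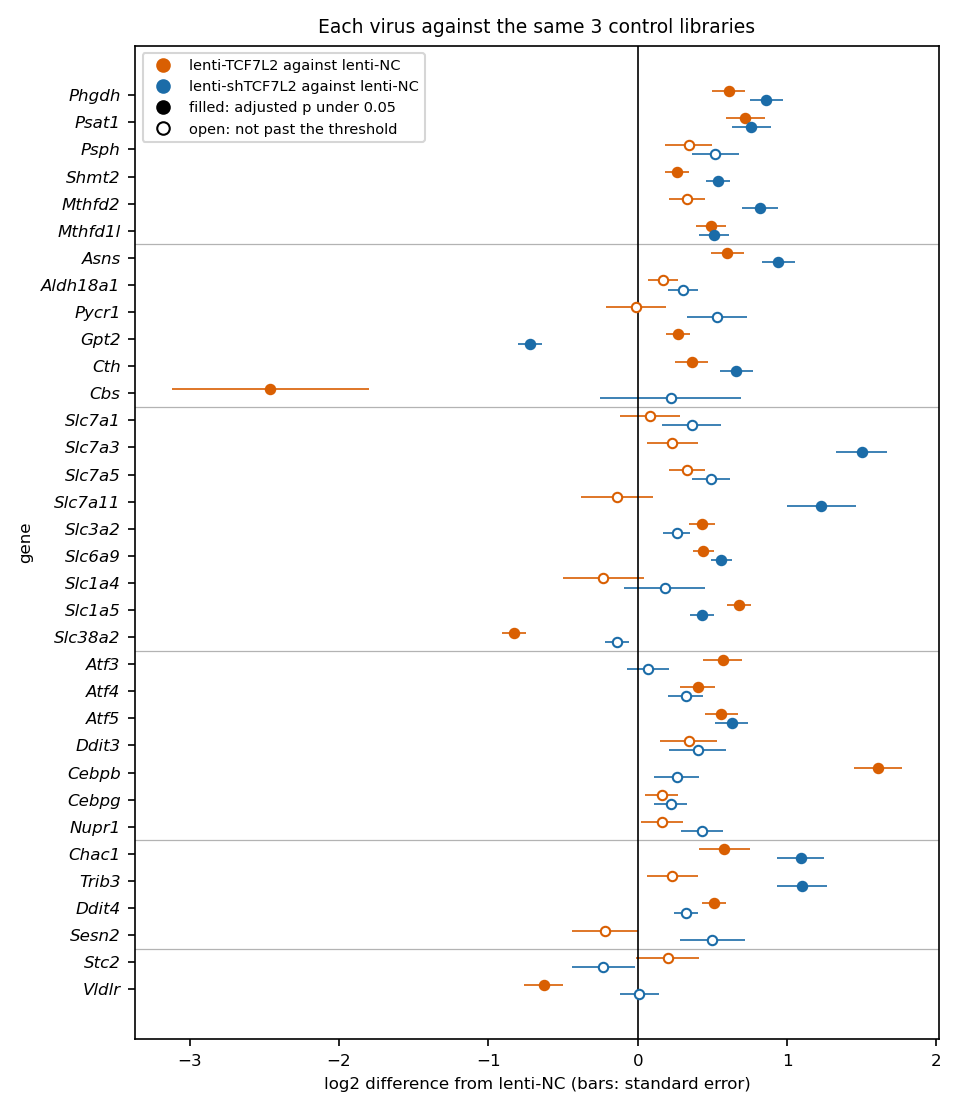
Points give the log2 difference of each gene from the same 3 lenti-NC libraries, with lenti-TCF7L2 in orange and lenti-shTCF7L2 in blue, bars the standard error, and filled points an adjusted p under 0.05. With lenti-shTCF7L2, 31 of 34 points lie above 0 (51.8% of all tested genes), and with lenti-TCF7L2 27 do (53.0%).

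Serine and one-carbon enzymes supply serine, glycine and folate-bound carbon for nucleotide and protein synthesis. Of the 6, 5 rose with lenti-shTCF7L2 and 4 with lenti-TCF7L2, against 1.32% and 18.0% of all tested genes. The median log2 differences of the 6 were 0.65 and 0.41. Phgdh (Entrez gene 58835), the first enzyme of serine synthesis, stood at 47.4, 40.6 and 47.6 CPM in the control libraries, 78.8, 60.2 and 67.3 in those with lenti-TCF7L2, and 80.7, 84.6 and 80.5 in those with lenti-shTCF7L2. The 3 groups did not overlap, with lenti-shTCF7L2 the highest. Phgdh rose by 0.61 with lenti-TCF7L2 (SE 0.11, adjusted p = 0.00335) and by 0.86 with lenti-shTCF7L2 (SE 0.11, adjusted p = 0.00488). The difference between the viruses, -0.25 (SE 0.11), did not pass the test (adjusted p = 0.103), but did without lenti-TCF7L2 replicate 1 (-0.37, adjusted p = 0.0325).

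Psat1 (Entrez gene 293820), the aminotransferase of the next step, measured 23.9, 18.3 and 20.9 CPM in the control libraries, 32.1, 32.0 and 39.6 in those with lenti-TCF7L2, and 34.8, 37.7 and 34.2 in those with lenti-shTCF7L2. Both virus groups lay above the controls and overlapped each other. It rose by 0.72 (SE 0.13, adjusted p = 0.00305) and 0.76 (SE 0.13, adjusted p = 0.0135) on the log2 scale with lenti-TCF7L2 and lenti-shTCF7L2. The second of these calls was lost without lenti-NC replicate 2 or 3 or any 1 lenti-shTCF7L2 library (adjusted p up to 0.0808). Psph, which completes serine synthesis, ranged from 11.9 to 17.0 CPM in the controls, from 16.7 to 22.4 with lenti-TCF7L2 and from 20.9 to 22.9 with lenti-shTCF7L2. Its log2 differences of 0.34 and 0.52 did not pass (adjusted p = 0.134 and 0.125), although the hairpin and control groups did not overlap. Without lenti-TCF7L2 replicate 3 the hairpin difference of Psph was 0.50 and passed (adjusted p = 0.0195).

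Shmt2 (Entrez gene 299857), the mitochondrial enzyme that takes a carbon from serine, stood at 114, 97.4 and 114 CPM in the control libraries, 137, 127 and 125 in those with lenti-TCF7L2, and 158, 159 and 154 in those with lenti-shTCF7L2. The groups formed 3 separate steps in that order. Log2 differences from lenti-NC were 0.26 (SE 0.08, adjusted p = 0.0325) and 0.54 (SE 0.08, adjusted p = 0.00896), and the difference between the viruses was -0.27 (SE 0.08, adjusted p = 0.0252). The call with lenti-TCF7L2 was lost in the fit of those 6 libraries (0.111) and without any 1 control or hairpin library or lenti-TCF7L2 replicate 1 (adjusted p up to 0.12). The call with the hairpin was lost without lenti-shTCF7L2 replicate 2 (0.0561), and that between the viruses without any 1 hairpin library (up to 0.0717).

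Mthfd2 (Entrez gene 680308), the next mitochondrial folate enzyme, measured 34.4, 27.7 and 36.2 CPM in the control libraries, 45.2, 37.9 and 40.2 in those with lenti-TCF7L2, and 53.9, 61.0 and 59.2 in those with lenti-shTCF7L2. Its groups also formed 3 separate steps. With the hairpin Mthfd2 rose by 0.82 (SE 0.12, adjusted p = 0.00809), and it was lower with lenti-TCF7L2 than with the hairpin by a log2 difference of -0.50 (SE 0.12, adjusted p = 0.0104). The hairpin call was lost without lenti-shTCF7L2 replicate 2 (adjusted p = 0.0542). The difference of 0.33 with lenti-TCF7L2 (SE 0.12) missed the threshold at an adjusted p of 0.0617 and passed without lenti-TCF7L2 replicate 2 (0.37, 0.0358) or replicate 3 (0.32, 0.0294). Mthfd1l (Entrez gene 361472), which releases formate from the pathway, stood at 20.9, 20.1 and 20.7 CPM in the control libraries, 29.2, 26.1 and 31.6 in those with lenti-TCF7L2, and 28.2, 27.2 and 32.6 in those with lenti-shTCF7L2. The virus groups overlapped each other above a tight control group. Mthfd1l rose by 0.49 (SE 0.10, adjusted p = 0.00722) and 0.51 (SE 0.10, adjusted p = 0.0304) with lenti-TCF7L2 and the hairpin. The hairpin call of Mthfd1l was lost without any 1 control or hairpin library or lenti-TCF7L2 replicate 1 (adjusted p up to 0.149).

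The 6 enzymes for other amino acids were less uniform. Asns (Entrez gene 25612), which makes asparagine and is a classic ATF4 target, stood at 71.8, 55.3 and 71.7 CPM in the control libraries, 105, 97.5 and 97.6 in those with lenti-TCF7L2, and 127, 136 and 119.7 in those with lenti-shTCF7L2. No groups overlapped, and the hairpin group was again the highest. Asns rose by 0.60 (SE 0.11, adjusted p = 0.00341) with lenti-TCF7L2 and by 0.94 (SE 0.11, adjusted p = 0.00313) with lenti-shTCF7L2, a 1.92-fold difference. Between the viruses it differed by -0.35 (SE 0.11, adjusted p = 0.0345), a call lost with the replicate number as a block (0.0507), under 2 other settings (up to 0.0538), and without lenti-TCF7L2 replicate 1 or any 1 hairpin library (up to 0.112). Cth (Entrez gene 24962), which makes cysteine from cystathionine, measured 9.28, 8.69 and 8.96 CPM in the control libraries, 12.9, 10.9 and 10.8 in those with lenti-TCF7L2, and 14.2, 15.2 and 13.1 in those with lenti-shTCF7L2. Its groups did not overlap. Cth rose by 0.36 (SE 0.11, adjusted p = 0.0367) and by 0.66 (SE 0.11, adjusted p = 0.0141) with lenti-TCF7L2 and the hairpin.

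The smaller of those Cth calls was lost with the replicate block (adjusted p = 0.054), under 4 other settings (up to 0.121) and without any 1 control or hairpin library or lenti-TCF7L2 replicate 1 (up to 0.129). The larger was lost without any 1 control library or lenti-shTCF7L2 replicate 1 or 2 (up to 0.0835). Cbs, the enzyme before Cth, was near the floor of detection. Its counts were 9, 15 and 8 in the control libraries, 0, 1 and 5 in those with lenti-TCF7L2, and 14, 11 and 13 in those with lenti-shTCF7L2. The lenti-TCF7L2 libraries lay below both other groups, with fitted log2 differences of -2.46 from lenti-NC (SE 0.66, adjusted p = 0.0217) and -2.67 from lenti-shTCF7L2 (SE 0.64, adjusted p = 0.0122). Such fitted values depend on how few counts there were, and the call against lenti-NC fell away when lenti-NC replicate 2 was omitted (adjusted p = 0.0811). Cbs was too low to be tested in the fit of those 6 libraries.

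Gpt2 (Entrez gene 307759), the mitochondrial alanine aminotransferase, stood apart from the rest of the set. It measured 32.5, 33.3 and 32.8 CPM in the control libraries, 41.1, 38.2 and 39.3 in those with lenti-TCF7L2, and 21.8, 19.3 and 18.8 in those with lenti-shTCF7L2. The overexpressing libraries lay above the controls and the hairpin libraries lay below them, with narrow spread in each group. Gpt2 fell by 0.72 on the log2 scale with the hairpin (SE 0.08, adjusted p = 0.00328) and rose by 0.27 with lenti-TCF7L2 (SE 0.08, adjusted p = 0.0359). The difference between the viruses, 0.99 (SE 0.08, adjusted p = 5.8e-05), passed in every setting tried. The rise with lenti-TCF7L2 was lost with the replicate block (0.0569), under 3 other settings (up to 0.0834) and without any 1 control library, lenti-TCF7L2 replicate 1 or lenti-shTCF7L2 replicate 2 or 3 (up to 0.124).

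Proline synthesis was represented by Aldh18a1 and Pycr1, its first and last enzymes, and neither passed in either comparison. Aldh18a1 ranged from 89.98 to 104.0 CPM with lenti-NC, from 95.7 to 118 with lenti-TCF7L2 and from 112 to 124 with the hairpin, with log2 differences of 0.17 and 0.30 (adjusted p = 0.212 and 0.145). Pycr1 ranged from 10.2 to 11.1, from 7.17 to 13.4 and from 14.3 to 16.6 CPM in the same order, with differences of -0.01 and 0.53 (adjusted p = 0.973 and 0.213). The low value of 7.17 was lenti-TCF7L2 replicate 3. Without that library the hairpin differences passed for Aldh18a1 (0.28, adjusted p = 0.0133) and Pycr1 (0.52, adjusted p = 0.00383), and so did the lenti-TCF7L2 difference of Aldh18a1 (0.22, adjusted p = 0.0351). In that run 17.4% of all genes were called with the hairpin and 42.7% with lenti-TCF7L2, where all libraries gave 3.64% and 31.8%.

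**Figure D3:**
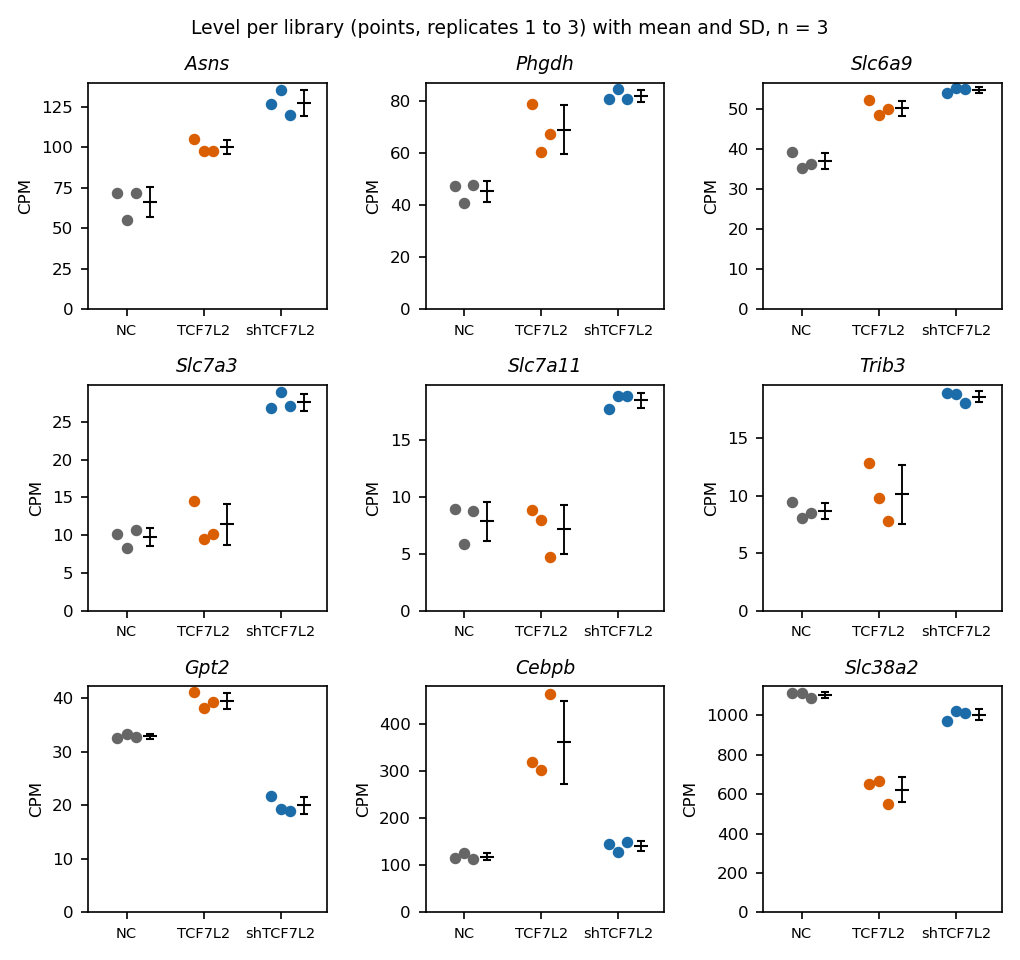
Each panel shows 1 gene, with a point per library in CPM by group, and a dash and bars for the mean and SD (n = 3). Slc7a3 and Slc7a11 are high in the hairpin libraries alone, Cebpb in the lenti-TCF7L2 libraries alone, and Gpt2 lies above the controls with lenti-TCF7L2 and below them with the hairpin.

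Amino acid transporters held the largest hairpin differences of the set. Of 9, 4 rose with lenti-shTCF7L2, against 1.32% of all tested genes. With lenti-TCF7L2, 3 rose and 1 fell, against 18.0% and 13.8% of all tested genes. Slc7a3 (Entrez gene 29485), a carrier of arginine, lysine and ornithine, stood at 10.2, 8.35 and 10.6 CPM in the control libraries, 14.6, 9.53 and 10.2 in those with lenti-TCF7L2, and 26.9, 28.9 and 27.0 in those with lenti-shTCF7L2. The lowest hairpin library was above every other library, while the other groups overlapped. Slc7a3 rose 2.84-fold with the hairpin (log2 difference 1.5, SE 0.17, adjusted p = 0.00283) and differed by -1.27 between the viruses (SE 0.16, adjusted p = 0.000511), whichever library was left out. Its difference of 0.23 with lenti-TCF7L2 (SE 0.17) did not pass (adjusted p = 0.318).

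Slc7a11 (Entrez gene 310392), which imports cystine in exchange for glutamate, measured 8.95, 5.86 and 8.76 CPM in the control libraries, 8.82, 7.94 and 4.72 in those with lenti-TCF7L2, and 17.7, 18.8 and 18.8 in those with lenti-shTCF7L2. Only the hairpin libraries stood apart. The hairpin rise was 2.35-fold (log2 difference 1.23, SE 0.23, adjusted p = 0.0208), and Slc7a11 was lower with lenti-TCF7L2 than with the hairpin by -1.37 (SE 0.23, adjusted p = 0.00201). The rise against lenti-NC was lost with the replicate block (0.0545) and without any 1 control or hairpin library (adjusted p up to 0.0956), and the difference between the viruses was kept. Counts of Slc7a11, Slc1a5 and Ddit3 were fractional in 9 of 9 libraries, of Slc7a1 in 8 and of Sesn2 in 7, so part of their reads was shared out between matches by the authors' counting. The other 30 genes had whole expected counts throughout.

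Slc1a5 (Entrez gene 292657), a carrier of glutamine and other neutral amino acids, had the reverse order. It stood at 52.3, 46.5 and 52.5 CPM in the control libraries, 81.1, 85.0 and 76.1 in those with lenti-TCF7L2, and 67.7, 68.5 and 67.96 in those with lenti-shTCF7L2. The groups did not overlap, and lenti-TCF7L2 was the highest. Slc1a5 rose by 0.68 (SE 0.08, adjusted p = 0.000341) with lenti-TCF7L2 and by 0.43 (SE 0.08, adjusted p = 0.0169) with the hairpin, and differed by 0.25 between them (SE 0.08, adjusted p = 0.0335). With the replicate block, the hairpin call (0.0602) and the call between the viruses (0.0654) were lost. The hairpin call was also lost without any 1 control or hairpin library (up to 0.086), and the call between the viruses under 2 other settings (up to 0.0706) and without any 1 library other than lenti-NC replicate 2 and lenti-TCF7L2 replicate 3 (up to 0.107).

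Slc6a9 (Entrez gene 116509), a glycine carrier, measured 39.4, 35.4 and 36.4 CPM in the control libraries, 52.2, 48.5 and 49.95 in those with lenti-TCF7L2, and 54.0, 55.3 and 55.2 in those with lenti-shTCF7L2. Each virus group lay above the controls with little spread. The rises were 0.44 (SE 0.07, adjusted p = 0.00215) and 0.56 (SE 0.07, adjusted p = 0.00488), and the difference of -0.13 between the viruses did not pass (SE 0.07, adjusted p = 0.2). Slc3a2, the heavy chain that pairs with Slc7a5 and Slc7a11 at the cell surface, stood at 169, 158 and 177 CPM in the control libraries, 239, 199 and 241 in those with lenti-TCF7L2, and 204, 197 and 204 in those with lenti-shTCF7L2. Both virus groups lay above the controls and overlapped each other. Slc3a2 rose by 0.43 with lenti-TCF7L2 (SE 0.09, adjusted p = 0.00552), and its hairpin difference of 0.26 (SE 0.09, adjusted p = 0.152) passed without lenti-TCF7L2 replicate 2 (adjusted p = 0.0415) or replicate 3 (0.0236). Without replicate 2 it also differed between the viruses (0.24, adjusted p = 0.0178).

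Slc38a2 (Entrez gene 29642), a sodium-coupled neutral amino acid carrier, had the highest control level per gene length of the 35 genes (231 FPKM, mean of 3 libraries). It stood at 1112, 1113 and 1086 CPM in the control libraries, 653, 664 and 549.7 in those with lenti-TCF7L2, and 969, 1022 and 1012 in those with lenti-shTCF7L2. The lenti-TCF7L2 libraries were the lowest, and the hairpin libraries lay just below the controls. With lenti-TCF7L2, Slc38a2 fell by 0.83 on the log2 scale (SE 0.08, adjusted p = 0.000201) and was lower there than with the hairpin by -0.69 (SE 0.08, adjusted p = 0.00036). Its hairpin difference of -0.14 did not pass (SE 0.08, adjusted p = 0.483), but did without lenti-TCF7L2 replicate 3 (-0.16, adjusted p = 0.0374).

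Slc7a5, Slc7a1 and Slc1a4, carriers of large neutral, cationic and small neutral amino acids, passed in neither comparison. Slc7a5 ranged from 125 to 166 CPM with lenti-NC, from 161 to 206 with lenti-TCF7L2 and from 203 to 218 with the hairpin, with log2 differences of 0.33 and 0.49 (adjusted p = 0.0757 and 0.0752). Slc7a1 ranged from 39.1 to 47.2, from 30.6 to 59.3 and from 53.2 to 59.1 CPM, with differences of 0.08 and 0.36 (adjusted p = 0.779 and 0.457). Slc1a4 ranged from 32.6 to 37.9, from 15.9 to 37.3 and from 36.2 to 41.4 CPM, with differences of -0.23 and 0.18 (adjusted p = 0.539 and 0.862). The lowest value of each range with lenti-TCF7L2 was replicate 3. Without it, Slc7a5 and Slc7a1 passed with lenti-TCF7L2 (0.41 and 0.29, adjusted p = 0.00299 and 0.0254) and with the hairpin (0.47 and 0.34, adjusted p = 0.00167 and 0.0144). Under the adjustment for gene length both genes also passed in both comparisons (adjusted p from 0.0112 to 0.027).

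Of 7 transcription factors of the response, 4 rose with lenti-TCF7L2 and 1 with the hairpin, against 18.0% and 1.32% of all tested genes. The median log2 differences of the 7 were 0.40 and 0.32. Between the viruses, 2 of the 7 differed, Atf3 and Cebpb, where 33.1% of all tested genes did. Atf4 (Entrez gene 79255) itself, which is controlled largely at translation, stood at 247, 223 and 248 CPM in the control libraries, 308, 259 and 379 in those with lenti-TCF7L2, and 301, 297 and 297 in those with lenti-shTCF7L2. All 6 virus libraries lay above the controls, and the virus groups overlapped. Atf4 rose by 0.40 with lenti-TCF7L2 (SE 0.12, adjusted p = 0.038), a call lost in the fit of those 6 libraries (0.119) and without any 1 control or hairpin library or lenti-TCF7L2 replicate 1 (up to 0.13). Its hairpin difference of 0.32 did not pass with all libraries (SE 0.12, adjusted p = 0.241), but did when fitted on the 6 libraries compared (0.32, 1.19e-05) and without lenti-TCF7L2 replicate 3 (0.30, 0.00773).

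Atf5 (Entrez gene 282840), a related factor of mitochondrial stress, measured 149.95, 120.3 and 160.2 CPM in the control libraries, 226, 202 and 208 in those with lenti-TCF7L2, and 234, 216 and 215 in those with lenti-shTCF7L2. The virus groups overlapped each other well above the controls. The rises were 0.56 (SE 0.11, adjusted p = 0.00425) and 0.63 (SE 0.11, adjusted p = 0.0142), the second of which was lost without lenti-NC replicate 1 or any 1 hairpin library (up to 0.0714). Cebpb (Entrez gene 24253), a C/EBP partner that also acts in inflammation, stood at 116, 127 and 113 CPM in the control libraries, 319.8, 302 and 464 in those with lenti-TCF7L2, and 145, 129 and 151 in those with lenti-shTCF7L2. It was far the highest in the lenti-TCF7L2 libraries. Cebpb rose 3.06-fold there (log2 difference 1.61, SE 0.16, adjusted p = 0.000173) and exceeded the hairpin group by 1.35 (SE 0.16, adjusted p = 0.000272). The hairpin difference of 0.26 did not pass (SE 0.15, adjusted p = 0.492), but did without lenti-TCF7L2 replicate 3 (0.24, adjusted p = 0.0275).

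Atf3, a stress-induced repressor, measured 7.87, 7.28 and 6.22 CPM in the control libraries, 11.3, 9.47 and 11.0 in those with lenti-TCF7L2, and 6.73, 7.56 and 8.16 in those with lenti-shTCF7L2. The hairpin and control libraries overlapped, and the lenti-TCF7L2 libraries lay above both. Atf3 rose by 0.57 (SE 0.13, adjusted p = 0.0112) with lenti-TCF7L2 and exceeded the hairpin group by 0.50 (SE 0.13, adjusted p = 0.0186), a call lost without lenti-TCF7L2 replicate 1 or lenti-shTCF7L2 replicate 1 or 2 (up to 0.0844). The other factors did not pass. Ddit3, the death-associated factor CHOP, differed by 0.34 and 0.40 with lenti-TCF7L2 and the hairpin (adjusted p = 0.196 and 0.345), over 13.5 to 18.6, 16.3 to 25.9 and 19.9 to 21.0 CPM. Cebpg, another C/EBP partner, differed by 0.16 and 0.22 (adjusted p = 0.271 and 0.349), over 21.1 to 23.2, 21.2 to 27.4 and 25.1 to 25.8 CPM. Nupr1, a stress-induced chromatin factor, differed by 0.16 and 0.43 (adjusted p = 0.386 and 0.136), over 63.0 to 73.9, 59.98 to 89.2 and 89.7 to 96.1 CPM. Without lenti-TCF7L2 replicate 3, Ddit3 (0.39, adjusted p = 0.0238) and Nupr1 (0.41, 0.00832) passed with the hairpin and Cebpg (0.24, 0.0398) with lenti-TCF7L2, and without replicate 2 Nupr1 passed with lenti-TCF7L2 (0.30, 0.0211) and with the hairpin (0.43, 0.017).

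Genes that act back on the response or on growth included Chac1, which degrades glutathione, and Trib3, a pseudokinase that binds ATF4 and restrains it. Chac1 (Entrez gene 362196) measured 6.53, 4.92 and 7.02 CPM in the control libraries, 9.77, 9.91 and 8.01 in those with lenti-TCF7L2, and 11.3, 14.4 and 13.7 in those with lenti-shTCF7L2. Its groups rose in separate steps from lenti-NC over lenti-TCF7L2 to the hairpin. The log2 rises were 0.58 (SE 0.17, adjusted p = 0.0271) and 1.09 (SE 0.16, adjusted p = 0.00975), and the viruses differed by -0.51 (SE 0.16, adjusted p = 0.0374). Trib3 (Entrez gene 246273) stood at 9.42, 8.02 and 8.49 CPM in the control libraries, 12.9, 9.78 and 7.77 in those with lenti-TCF7L2, and 18.9, 18.8 and 18.1 in those with lenti-shTCF7L2. The hairpin libraries lay above all others, and lenti-TCF7L2 overlapped the controls. Trib3 rose 2.15-fold with the hairpin (log2 difference 1.10, SE 0.17, adjusted p = 0.0102) and differed by -0.88 between the viruses (SE 0.17, adjusted p = 0.00379), while its lenti-TCF7L2 difference of 0.23 did not pass (adjusted p = 0.329).

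Within the set, 12 genes that rose with the hairpin had a promoter sequence. Of these, Chac1 and Trib3, or 16.7%, hold the core of the C/EBP-ATF response element, at which ATF4 and C/EBP proteins are known to bind. In both it lies in the 250 bases before the annotated start. Of the 18 with a promoter sequence that were tested and did not rise with the hairpin, 4 hold it, or 22.2%. Slc7a3 and Slc1a5 also rose with the hairpin but had no promoter sequence to search. Some calls of Chac1 and Trib3 turned on single libraries. For Chac1, the lenti-TCF7L2 rise was lost with the replicate block (0.0548), under 2 other settings (up to 0.0751) and without lenti-NC replicate 1 or 2 or lenti-TCF7L2 replicate 1 (up to 0.0938). Its hairpin rise was lost without lenti-shTCF7L2 replicate 2 or 3 (up to 0.0571). The Chac1 difference between the viruses was lost with the replicate block (0.0712), under 2 other settings and without lenti-NC replicate 1, lenti-TCF7L2 replicate 1 or lenti-shTCF7L2 replicate 2 or 3 (up to 0.119). The hairpin rise of Trib3 was lost without lenti-NC replicate 2 or 3 or lenti-shTCF7L2 replicate 2 (up to 0.0644). Without lenti-TCF7L2 replicate 3, Trib3 also passed with lenti-TCF7L2 (0.37, adjusted p = 0.0354).

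Promoter sequences from RefSeq (rat build GRCr8) were at hand for 31 of the 35 genes, each running from 250 bases before to 50 after the start. Those of Slc7a3, Aldh18a1, Atf3 and Slc1a5 were not matched. The core TGATGNAA, searched on both strands, was in 7 of the 31, or 22.6%. Of the 30 that were tested it was in 6, or 20.0%, against 2.09% of the 9572 tested genes with a promoter sequence. The composite site TTGCATCA, which is a case of the core read on the opposite strand, was in 5 of 31, or 16.1%. Of the 30 tested it was in 4, or 13.3%, against 0.606%. The 250 bases before the starts of Chac1 (chr3:126795881-126796130, plus strand) and Trib3 (chr3:161275534-161275783, minus strand) are shown because these genes rose, and shorter stretches around the match for the other 5, which did not rise with either virus or were not tested. Capitals mark the match to the core on either strand, and each sequence reads 5′ to 3′ along its gene.
Chac1: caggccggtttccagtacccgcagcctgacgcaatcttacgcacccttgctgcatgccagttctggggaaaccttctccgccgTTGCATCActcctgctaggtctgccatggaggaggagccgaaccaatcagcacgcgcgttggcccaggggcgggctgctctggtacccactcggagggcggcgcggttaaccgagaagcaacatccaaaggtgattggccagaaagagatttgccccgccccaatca
Trib3: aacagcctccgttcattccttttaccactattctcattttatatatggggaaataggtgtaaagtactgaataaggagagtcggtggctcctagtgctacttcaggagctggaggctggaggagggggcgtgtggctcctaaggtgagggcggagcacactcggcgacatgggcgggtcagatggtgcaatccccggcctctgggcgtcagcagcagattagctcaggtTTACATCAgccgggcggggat
Nupr1 (chr1:190645923-190645982, minus strand): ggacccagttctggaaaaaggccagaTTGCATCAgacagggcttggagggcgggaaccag
Fgf21 (chr1:105221486-105221545, minus strand): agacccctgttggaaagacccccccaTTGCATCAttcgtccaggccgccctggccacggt
Slc1a4 (chr14:98761764-98761812, minus strand): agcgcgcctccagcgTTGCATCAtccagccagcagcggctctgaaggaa
Pycr1 (chr10:106420910-106420969, minus strand): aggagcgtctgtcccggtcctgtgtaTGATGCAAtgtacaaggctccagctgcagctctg
Slc7a1 (chr12:11664432-11664487, plus strand): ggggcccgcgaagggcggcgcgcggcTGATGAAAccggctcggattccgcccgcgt

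**Figure D4:**
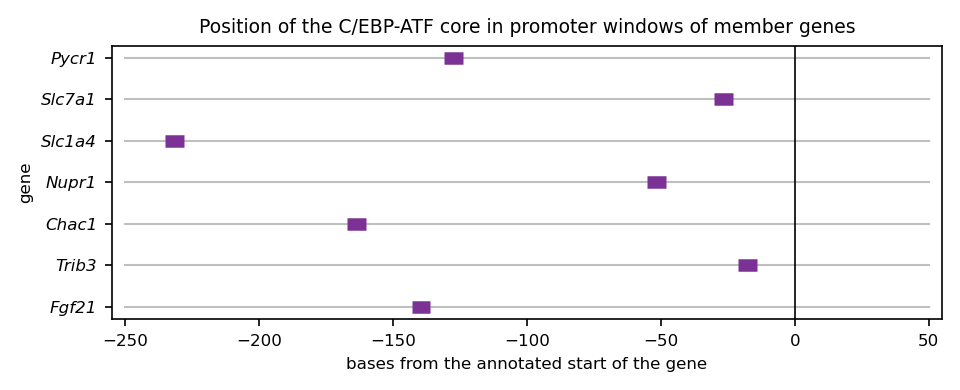
Boxes give the position of the core match in the promoter window of each of the 7 genes that hold one, as distance in bases from the annotated start (vertical line). The matches lie between 235 and 14 bases before the start, that of Trib3 being the nearest and that of Slc1a4 the farthest.

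Chac1, Nupr1, Fgf21, Slc1a4 and Pycr1 shared all 8 letters of TTGCATCA or its reverse complement, and Trib3 and Slc7a1 held the core with another letter at the open position. The core was in 2 of the 12 with a promoter sequence that rose with the hairpin, or 16.7%, and in 4 of the 18 that did not, or 22.2%. Among all genes that rose with the hairpin, 7 of 119 held it, or 5.88%. The TCF/LEF motif CTTTGAT was in 2.25% of all promoters searched and the cyclic AMP response element TGACGTCA in 3.28%, and neither had a match in the 31 windows. A match is only a match of letters, and genes without one may hold sites elsewhere.

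Ddit4, an inhibitor of the growth kinase mTORC1, stood at 60.01, 61.0 and 59.97 CPM in the control libraries, 82.4, 83.6 and 91.3 in those with lenti-TCF7L2, and 81.3, 68.3 and 76.4 in those with lenti-shTCF7L2. Every lenti-TCF7L2 and lenti-shTCF7L2 library exceeded every lenti-NC library. Ddit4 rose by 0.51 with lenti-TCF7L2 (SE 0.08, adjusted p = 0.00195), and its hairpin difference of 0.32 missed the threshold (SE 0.08, adjusted p = 0.074), which it passed in DESeq2 (0.0431) and without lenti-TCF7L2 replicate 3 (0.00727). Sesn2, a leucine sensor upstream of the same kinase, measured 42.1, 35.5 and 40.4 CPM in the control libraries, 37.2, 43.5 and 21.0 in those with lenti-TCF7L2, and 54.3, 59.1 and 53.3 in those with lenti-shTCF7L2. The hairpin libraries were the highest, and 1 lenti-TCF7L2 library, replicate 3, was far below the rest. Sesn2 differed by -0.22 (SE 0.22, adjusted p = 0.48) and 0.50 (SE 0.22, adjusted p = 0.315) from lenti-NC, and by -0.71 between the viruses (SE 0.22, adjusted p = 0.036). That call was lost in the fit of those 6 libraries (0.0902) and without any 1 control or hairpin library or lenti-TCF7L2 replicate 1 (up to 0.0976). Without lenti-TCF7L2 replicate 3 the hairpin difference of Sesn2 passed (0.48, adjusted p = 0.00109).

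Among secreted and surface proteins, none rose. Vldlr, a lipoprotein receptor, stood at 193, 202 and 203 CPM in the control libraries, 148, 139 and 101 in those with lenti-TCF7L2, and 211, 190.2 and 202 in those with lenti-shTCF7L2. The hairpin libraries overlapped the controls, and the lenti-TCF7L2 libraries lay below both. Vldlr fell by 0.63 with lenti-TCF7L2 (SE 0.13, adjusted p = 0.00624) and was lower than with the hairpin by -0.64 (SE 0.13, adjusted p = 0.00516). Stc2, a secreted glycoprotein, ranged from 10.0 to 11.4, from 8.78 to 16.0 and from 7.70 to 10.8 CPM with lenti-NC, lenti-TCF7L2 and the hairpin, with log2 differences of 0.20 and -0.23 (adjusted p = 0.495 and 0.709). Fgf21, a stress hormone, was at 0, 0.269 and 0 CPM in the control libraries, 0.126, 0 and 0.179 in those with lenti-TCF7L2, and 0, 0 and 0.133 in those with lenti-shTCF7L2, too few to compare.

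Genes around the response were counted from lists of related genes, to be read against all tested genes, of which 1.32% rose and 2.32% fell with the hairpin, and 18.0% rose and 13.8% fell with lenti-TCF7L2. Of 20 tested cytosolic aminoacyl-tRNA synthetases, which charge transfer RNAs, 6 rose with the hairpin (30.0%) and 9 with lenti-TCF7L2 (45.0%), with medians of 0.33 and 0.22. Yars (tyrosine) rose by 0.69 and 0.67 (adjusted p = 0.0174 and 0.00363), Aars (alanine) by 0.54 with the hairpin (adjusted p = 0.00559) and Vars (valine) by 0.28 and 0.41 (adjusted p = 0.0281 and 0.000884). Aars was also lower with lenti-TCF7L2 than with the hairpin, by -0.37 (adjusted p = 0.00429). The hairpin call of Yars was lost without any 1 control or hairpin library (up to 0.0969), and that of Aars was lost in none.

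Of 24 other genes bound or induced by ATF4, 3 rose (12.5%) and 1 fell (4.17%) with the hairpin, and 7 rose (29.2%) and 5 fell (20.8%) with lenti-TCF7L2. Adm2, a secreted peptide, stood at 1.35, 1.15 and 1.67 CPM in the control libraries, 3.34, 2.99 and 3.23 in those with lenti-TCF7L2, and 4.69, 3.91 and 4.45 in those with lenti-shTCF7L2. It rose by 1.19 (adjusted p = 0.00134) and 1.64 (adjusted p = 0.00237). Gdf15, a secreted stress hormone, rose with the hairpin (0.72, adjusted p = 0.00975), not with lenti-TCF7L2 (-0.25, adjusted p = 0.114), and differed by -0.96 between the viruses (adjusted p = 0.000243). Its hairpin call was lost without lenti-NC or lenti-shTCF7L2 replicate 2 or 3 (up to 0.0608). Among the genes that fell with lenti-TCF7L2 were Rragd, a nutrient-sensing GTPase, by 1.65, and Got1, an aspartate aminotransferase, by 0.72.

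Of 15 other serine, glycine and folate enzymes, 1 rose with the hairpin, or 6.67%, and 2 rose (13.3%) and 1 fell (6.67%) with lenti-TCF7L2. With lenti-TCF7L2, Fpgs, which adds glutamates to folate, rose by 0.70 (adjusted p = 0.00161), and Dld, a subunit of the glycine cleavage system, fell by 0.62 (adjusted p = 0.000491). Aldh1l2, a mitochondrial folate enzyme, rose with both (0.63 and 0.54, adjusted p = 0.0148 and 0.00534), the hairpin call being lost without lenti-NC replicate 2 or 3 or any 1 hairpin library (up to 0.0755). Of 18 other amino acid transporters, 2 rose and 2 fell with the hairpin (11.1% each), and 2 rose (11.1%) and 4 fell (22.2%) with lenti-TCF7L2. Of 9 eIF2alpha kinases, phosphatases and their regulators, 1 fell in each comparison: Ppp1r15b, a phosphatase subunit, by 0.45 with the hairpin (adjusted p = 0.015), and Impact, a regulator of the kinase GCN2, by 0.31 with lenti-TCF7L2 (adjusted p = 0.0421). Both of these calls were lost without any 1 control library (up to 0.132).

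**Figure D5:**
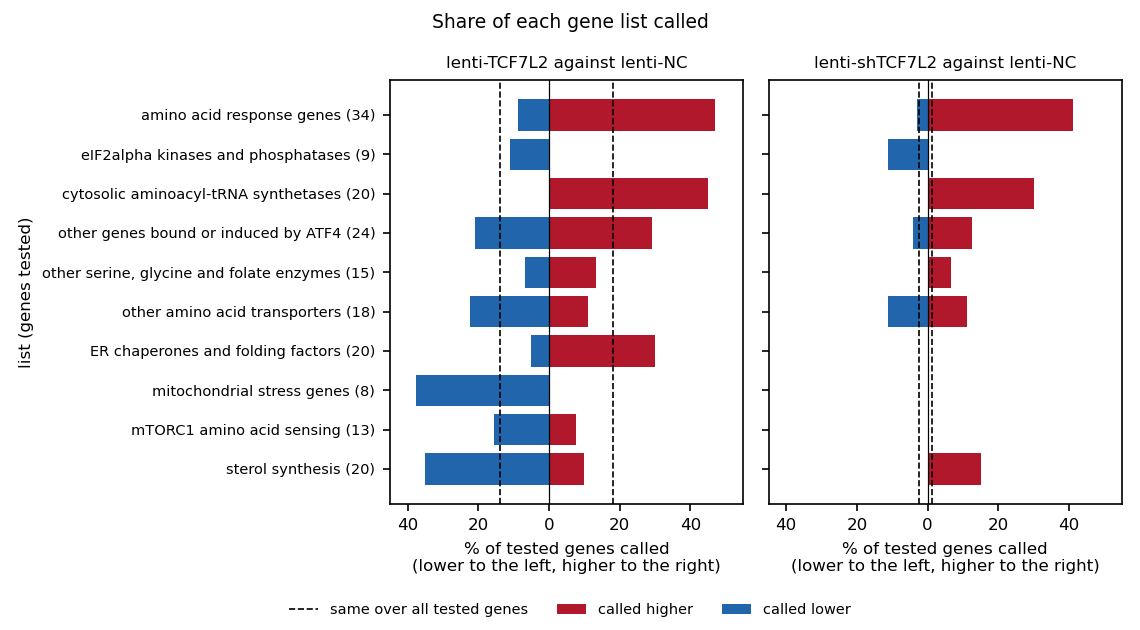
Bars give the share of tested genes of each list that rose (right) or fell (left) against lenti-NC, with the number tested in brackets, and dashed lines give the same shares over all tested genes. With the hairpin the amino acid response genes (41.2% higher) and the aminoacyl-tRNA synthetases (30.0% higher) reach farthest to the right.

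Other lists covered further stresses and sterol synthesis, also to be read against all tested genes. Of those, 18.0% rose and 13.8% fell with lenti-TCF7L2, and 1.32% rose and 2.32% fell with the hairpin. Of 20 ER chaperones and folding factors, 6 rose and 1 fell with lenti-TCF7L2, and with the hairpin 0 passed in edgeR, with 1 at an unadjusted p under 0.05 and 0 in DESeq2. Of 8 mitochondrial stress genes 3 fell with lenti-TCF7L2, among them Hspa9 by 0.57 (adjusted p = 0.000473), and with the hairpin 0 passed in edgeR, with 0 at an unadjusted p under 0.05 and 0 in DESeq2. Of 13 mTORC1 sensing genes 1 rose and 2 fell with lenti-TCF7L2, and with the hairpin 0 passed in edgeR, with 2 at an unadjusted p under 0.05 and 0 in DESeq2. Of 20 sterol synthesis genes 3 rose with the hairpin, or 15%, with a median log2 difference of 0.33, and 14 were higher at an unadjusted p under 0.05 and 6 in DESeq2. With lenti-TCF7L2, 2 of them rose and 7 fell. Between the viruses, 15 were lower with lenti-TCF7L2 than with the hairpin, against 14.7% of all tested genes. Among those that rose, Dhcr7 and Idi1 each lost the call without lenti-NC replicate 1, 2 or 3, without lenti-shTCF7L2 replicate 2 or 3, and with the replicate block (adjusted p up to 0.126).

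Markers of other cells were counted beside the amino acid response genes, to be read against all tested genes. Of those, 18.0% rose and 13.8% fell with lenti-TCF7L2, and 1.32% rose and 2.32% fell with the hairpin. Of 10 endothelial markers 9 rose with lenti-TCF7L2. Summed, the 10 ran from 79.7 to 102 CPM with lenti-NC, from 157 to 234 with lenti-TCF7L2 and from 83.2 to 84.4 with the hairpin. Of 7 tested macrophage markers 4 rose with lenti-TCF7L2 and 2 with the hairpin, over sums of 41.0 to 42.2, 72.6 to 77.9 and 44.1 to 47.3 CPM. Fibroblast markers summed to 52427 to 53959, 44990 to 64060 and 51700 to 54040 CPM, with 4 of 10 higher and 2 lower with lenti-TCF7L2 and 3 lower with the hairpin. Smooth muscle and pericyte markers summed to 7577 to 7672, 6882 to 8010 and 7365 to 7532 CPM, with 2 of 9 higher with lenti-TCF7L2 and 1 with the hairpin. Schwann and neural markers summed to 404 to 417, 178 to 336 and 417 to 447 CPM. Cd163, 1 of the 10 macrophage markers listed, and the erythroid genes Hba-a1, Hbb and Alas2 never exceeded 3 counts in a library. The part of these cells in the amino acid response values was not tested, and in bulk samples fewer cells of a type and less RNA per cell cannot be told apart.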

How the data were processed

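RNA-seq values of 9 libraries, 3 per group, were analysed, with groups taken from the sample titles. Per the file headers, the authors deposited for each library the expected count (estimated reads), the FPKM value and the length of each gene. The submitters' processing notes name HISAT2, Bowtie2, RSEM 1.3.1, DESeq2 1.4.5 and rn6, without roles; positions on rn6 were not used here. Between 84.2% and 84.5% of the expected counts per library were whole, and a gene absent from a file was set to 0.

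Expected counts were rounded, filtered with filterByExpr and TMM-scaled. All 9 libraries entered 1 fit in edgeR 4.0.16 (R 4.3.3), which had no term but the group, and its quasi-likelihood test was used 2-sided, with p-values adjusted by Benjamini and Hochberg over 11761 genes, with a threshold of 0.05. CPM values use the TMM-scaled sizes. The biological coefficient of variation was 14.9%. The procedure was tested on simulated data. The 35 genes and the lists were chosen with earlier results of these data known. Within lists, genes are named by smallest p, at most 3 per list and comparison, and some are not reported here; Cars, Cyp4b1 and Stard3nl are named in the closing section after their values were seen. Alternatives were DESeq2 1.42.0, RLE and upper-quartile scaling, no filter or at least 10 counts in 6 libraries, limma-trend (limma 3.58.1) on log2 FPKM plus 1 or 0.1, a replicate block, only the 6 libraries compared, a length trend per library, and each library left out. The length trend combined with leaving out lenti-TCF7L2 replicate 3 was added after seeing the data.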

Additional observations from a re-analysis of the deposited data

How the results depend on the processing

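The number of the 34 genes called with lenti-TCF7L2 (19) ran from 13 to 25 as libraries were left out, that with lenti-shTCF7L2 (15) from 5 to 28, that between the viruses (15) from 9 to 19, and that higher with both (10) from 3 to 19. The shares of all tested genes called in the same runs were 20.5% to 46.5%, 0.742% to 17.4%, 22.3% to 45.7% and 0.109% to 2.5%. With lenti-shTCF7L2 the count was 29 in the fit of only the 6 libraries compared (28.5% of all genes), and 27 (22.0%) with the length trend and without lenti-TCF7L2 replicate 3, where 19 rose with both (3.54%). The cause of these shifts was not tested.

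Same-numbered libraries of different groups had residual correlations of -0.067 to 0.151, 2 of 9 over 0.1. For different numbers the correlations were -0.159 to 0.111, 1 of 18 over 0.1. These values do not settle whether the replicate numbers pair the samples. With the replicate number as a block the counts were 16, 13, 12 and 7, against 29.4%, 2.07%, 31.0% and 0.357% of all genes.

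Signs turned only for differences that had not passed, and the cause was not tested. Under the length trend these were Mthfd1l (0.05) and Atf4 (-0.04) between the viruses, and Slc7a11 (0.24) and Nupr1 (-0.03) with lenti-TCF7L2. With that trend and without lenti-TCF7L2 replicate 3 they were Pycr1 (0.17), Slc7a11 (0.25), Slc1a4 (0.03) and Sesn2 (0.01) with lenti-TCF7L2 and Atf4 between the viruses (-0.10). Upper-quartile scaling gave Mthfd1l 0.02 between the viruses and Pycr1 0.04 with lenti-TCF7L2, limma gave Mthfd1l 0.00, and the stricter filter gave Vldlr -0.01 with the hairpin. As single libraries were left out, the difference with lenti-TCF7L2 ran from -0.23 to 0.19 for Pycr1, from -0.15 to 0.29 for Slc7a1, from -0.33 to 0.08 for Slc7a11, from -0.43 to 0.06 for Slc1a4, from -0.44 to 0.02 for Sesn2 and from -0.04 to 0.37 for Stc2. With the hairpin it ran from -0.02 to 0.15 for Atf3 and from -0.03 to 0.05 for Vldlr. Between the viruses it ran from -0.15 to 0.01 for Psat1, from -0.09 to 0.06 for Mthfd1l and from -0.07 to 0.20 for Atf4.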

Other observations

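Among all genes that rose with lenti-shTCF7L2 and had a promoter sequence, 107 were outside the set of amino acid response genes, and 5 of them, or 4.67%, held the core TGATGNAA, against 2.09% of all tested genes. They were the aminoacyl-tRNA synthetases Aars (log2 difference 0.54), Cars (0.64) and Yars (0.69), and Cyp4b1 (3.17) and Stard3nl (0.82). Among genes that rose with lenti-TCF7L2 the share was 2.28%, or 39 of 1709. These shares are descriptions, and no test was made of them.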
